A study of Mus musculus with 6 samples.

Results

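The unfolded protein response (UPR) and the folding machinery of the endoplasmic reticulum (ER) were followed through 37 genes. The data were RNA-sequencing (RNA-seq) of cultured podocytes overexpressing the long non-coding RNA Dlx6-os1. The genes were chosen by symbol from what their products are known to do, with earlier results of these data known. All 37 were among the 11308 genes measured. They comprise 3 stress sensors, 6 genes of the transcription factors and the ATF4 arm, 9 ER chaperones and co-chaperones, 2 lectin chaperones, 5 disulfide enzymes, 9 genes of ER-associated degradation and 3 genes of the translocon.

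The ER folds proteins that are to be secreted or placed in membranes. When unfolded proteins build up, the sensors IRE1 (Ern1), PERK (Eif2ak3) and ATF6 start the UPR: IRE1 splices the mRNA of Xbp1, PERK phosphorylates eIF2α so that general translation slows while ATF4 is made, and ATF6 is cut to release a transcription factor. XBP1 and ATF6 switch on chaperones and degradation genes, and ATF4 switches on CHOP (Ddit3) and Trib3. Podocytes, the filtration cells of the glomerulus, make large amounts of membrane and matrix protein, and ER stress in them has been described in proteinuric kidney disease.

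MPC5 cells, a conditionally immortalized mouse podocyte line, were studied in 2 groups of 3 samples, cells overexpressing Dlx6-os1 and control cells, both under normal glucose. The labels give the strain as C57BL/6 and a lentivirus carrying dlx6-os1 or no insert. The methods of the study name an adenovirus and normal controls, the titles call the controls WT, and control 3 carries no genotype label, so what the controls received is not settled. Both groups come from 1 cell line. The study states in general terms that its measurements came from distinct samples, and the labels do not say how the 3 samples of a group were grown, so the p-values measure the spread between these samples.

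The values are in FPKM, a fragment number divided by transcript length and library size, which the authors gave per transcript and which were summed per gene here. The FPKM of all listed transcripts summed to between 329402 and 371806 per sample. The number of reads is unknown. Of 10 podocyte markers, 7 were measured, among them Synpo and Podxl, and their summed level was 555 to 569 FPKM in the controls and 569 to 599 FPKM with overexpression. Actn4 and Vim carried most of this sum. Of the 7 markers, 4 had log2 changes below 0, among them Synpo (-0.20) and Podxl (-0.14), with a median of -0.087, and Plce1, a phospholipase of the podocyte, fell by 0.62 on the log2 scale (limma adjusted p = 0.516). Nphs1, which encodes the slit diaphragm protein nephrin, had no listed value and is not analysed here. Of 6 proximal tubule markers, 2 were measured, Lrp2 and Aqp1. Their summed level was 140.2 to 209 FPKM in the controls and 36.9 to 126 FPKM with overexpression, lowest in overexpression sample 3. Of 6 mesangium and stroma markers, 3 were measured (Pdgfrb, Gata3 and Col1a1). All 3 log2 changes were below 0, and Gata3 fell by 1.09 (limma adjusted p = 0.352). Their summed level was 15.5 to 17.0 FPKM in the controls and 7.76 to 13.1 FPKM with overexpression, again lowest in sample 3. The part of these differences in the results was not tested, and in bulk RNA fewer cells of a type and less RNA per cell cannot be told apart. Control 1 stood apart from controls 2 and 3 by the GC content of genes: on the log2 scale the 19 members of lower GC differed from the other controls by 0.31 at the median and the 18 of higher GC by -0.34, beside 0.31 and -0.29 for all genes.

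A pair of genes of the module, Trib3 and Hspa5, met the criteria of the study for a higher gene with Dlx6-os1 overexpression. They did so only before adjustment of p (limma adjusted p = 0.421 and 0.512). Trib3, a pseudokinase induced by ATF4 and CHOP, had a group mean 2.17-fold that of the controls. Hspa5, which encodes BiP, the main ER chaperone and the repressor of the sensors, had a group mean 1.90-fold that of the controls, with most of the rise in 1 sample. None of the other 35 members met the criteria of the study for a changed gene, a fold above 1.5 and a p under 0.05. The study does not say whether that p was adjusted, and the p before adjustment was used here for what are called its thresholds. Of all genes, 2.49% (282 genes) were called higher and 2.23% (252 genes) lower at these thresholds, and median-centring turned this split to 228 and 314. The sensors and Xbp1, Atf4 and Ddit3 overlapped between the groups.

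The test behind these calls was the two-sided moderated test of limma, run on log2(FPKM + 1) for all 11308 genes and adjusted over them by Benjamini-Hochberg. The added 1 makes the changes of genes at a few FPKM look smaller. No member reached an adjusted p under 0.05 in limma. Their smallest adjusted p was 0.421, and 0.0354% of all genes (4 genes) reached the threshold. At an unadjusted p under 0.05 alone, 3 members were higher (Trib3, Hspa5 and Creld2) and 0 were lower, beside 5.29% and 3.87% of all genes. No exact permutation test was used, since with 3 samples in each group its smallest two-sided p is 0.1.

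**Figure D1:**
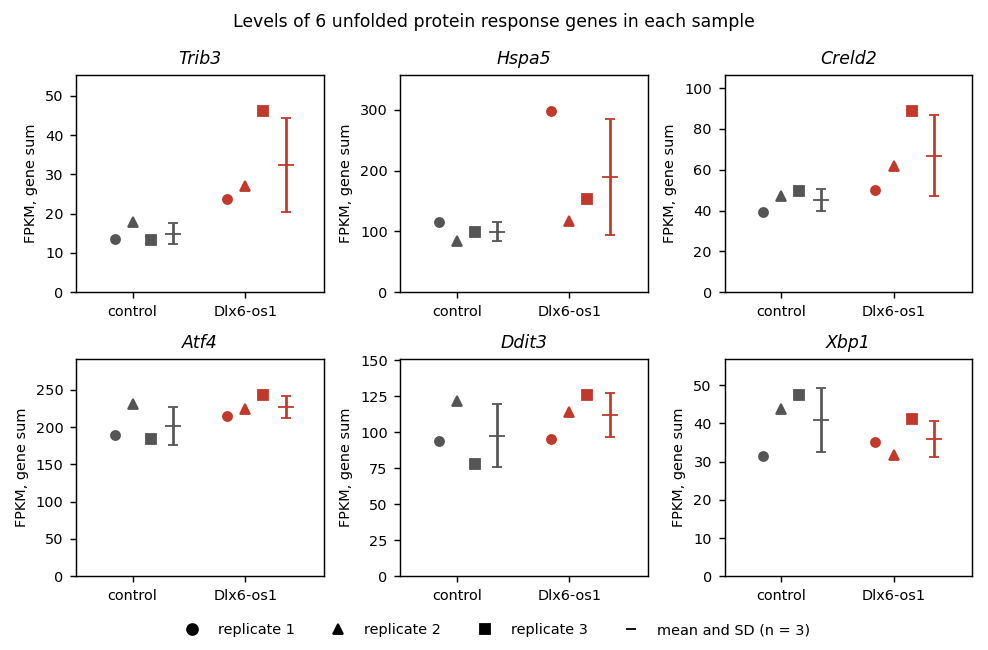
FPKM (vertical axis, from 0) of 6 UPR genes in each control and Dlx6-os1 sample, with symbols for replicates 1 to 3 and bars for the mean and SD (n = 3). The 3 overexpression samples lie above the 3 controls for Trib3 (23.8 to 46.2 against 13.3 to 17.9), Hspa5 and Creld2, and the groups overlap for Atf4, Ddit3 and Xbp1.

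The first question is whether the sensors differed. Ern1, the kinase and RNase IRE1, stood at 6.38, 6.03 and 4.94 FPKM in controls 1, 2 and 3 and at 6.35, 6.32 and 5.75 FPKM in overexpression samples 1, 2 and 3. Its groups overlapped, and control 1 was the highest sample. Eif2ak3, the kinase PERK, had 13.9, 10.8 and 13.1 FPKM in the controls and 14.7, 14.9 and 12.1 FPKM with overexpression. Overexpression samples 1 and 2 lay above every control, while sample 3 lay below 2 of them. Atf6, the membrane-bound transcription factor, had 17.1, 12.5 and 10.7 FPKM in the controls and 14.8, 13.4 and 15.9 FPKM with overexpression, so that control 1 was again the highest. The log2 changes of the 3 sensors were 0.079 (95% interval -0.31 to 0.47) for Ern1, 0.13 (-0.25 to 0.52) for Eif2ak3 and 0.14 (-0.30 to 0.59) for Atf6. These intervals hold 0, and that of Atf6 reaches the 1.5-fold threshold, so they do not show that the sensors were equal in the groups.

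Xbp1, the target of the IRE1 nuclease, had 31.5, 43.7 and 47.4 FPKM in the controls and 35.1, 31.6 and 41.0 FPKM with overexpression. The lowest and the highest sample were both controls. Its log2 change was -0.17 (SE 0.19, 95% interval -0.60 to 0.26). IRE1 acts by cutting a stretch of 26 bases out of the Xbp1 mRNA, which shifts the reading frame so that the active factor is made. The stretch is shown because it decides which form of XBP1 a transcript encodes. In GRCm38 it lies on chromosome 11 at chr11:5524282-5524307, plus strand, within exon 4 of Xbp1-001, read from the GENCODE M21 transcripts, with the 26 bases in capitals and 2 flanking bases on each side:
Xbp1: agCACTCAGACTATGTGCACCTCTGCAGca
Each of the 3 listed Xbp1 transcripts (Xbp1-001, Xbp1-003 and Xbp1-004) contains it. The table therefore has no separate value for the spliced form, and the Xbp1 level says nothing of how much was spliced. Xbp1-001 carried 93.9% to 97.3% of the FPKM of the gene in each sample.

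Of the 6 genes of the transcription factors and the ATF4 arm, 5 had log2 changes above 0. Trib3 alone passed the thresholds of the study, and the genes were not tested against one another. Atf4, the transcription factor made when eIF2α is phosphorylated, is controlled largely in translation, which RNA levels do not show. It had 189, 231 and 184 FPKM in the controls and 215, 224 and 243 FPKM with overexpression. Control 2 lay above 2 of the overexpression samples, and the log2 change was 0.18 (SE 0.16, 95% interval -0.18 to 0.54). Ddit3, which encodes the pro-apoptotic factor CHOP, had 93.6, 121 and 78.0 FPKM in the controls and 95.6, 114 and 126 FPKM with overexpression. Here too control 2 lay among the overexpression samples, and the log2 change was 0.21 (SE 0.20, 95% interval -0.24 to 0.66).

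Trib3 (ENSMUSG00000032715.9, minus strand of chromosome 2, 152337422 to 152344032 in GRCm38) was the gene that passed, though its 95% interval overlapped those of Atf4 and Ddit3. It had 13.5, 17.9 and 13.3 FPKM in the controls and 23.8, 27.1 and 46.2 FPKM with overexpression. Every overexpression sample lay above every control, and sample 3 was the highest by far. The means were 14.9 ± 2.60 (SD, n = 3) and 32.4 ± 12.1 (SD, n = 3) FPKM. Its log2 change in limma was 1.02 (SE 0.25, 95% interval 0.45 to 1.60, adjusted p = 0.421). The call held in all 21 alternative settings, with limma adjusted p from 0.168 to 0.851. Log2 changes ran from 0.74 (without overexpression sample 3) to 1.21 (without overexpression sample 1). Of the 21, removing the filter could change nothing, and folds of means kept the p-values of the log2 fit. Trib3 has 1 listed transcript, so its value is not a sum. Reads assigned to transcripts that are not listed would not be seen.

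Ppp1r15a and Ppp1r15b encode GADD34 and CReP, the subunits that bring a phosphatase to eIF2α and so end the block of translation. Their log2 changes were 0.32 (SE 0.22) and 0.26 (SE 0.15). In Ppp1r15a overexpression sample 2, at 25.1 FPKM, was close to the lowest control, whereas samples 1 and 3, at 40.1 and 44.1 FPKM, exceeded all controls. Ppp1r15b ranged from 19.2 to 25.0 FPKM in the controls and from 24.1 to 28.1 FPKM with overexpression.

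**Figure D2:**
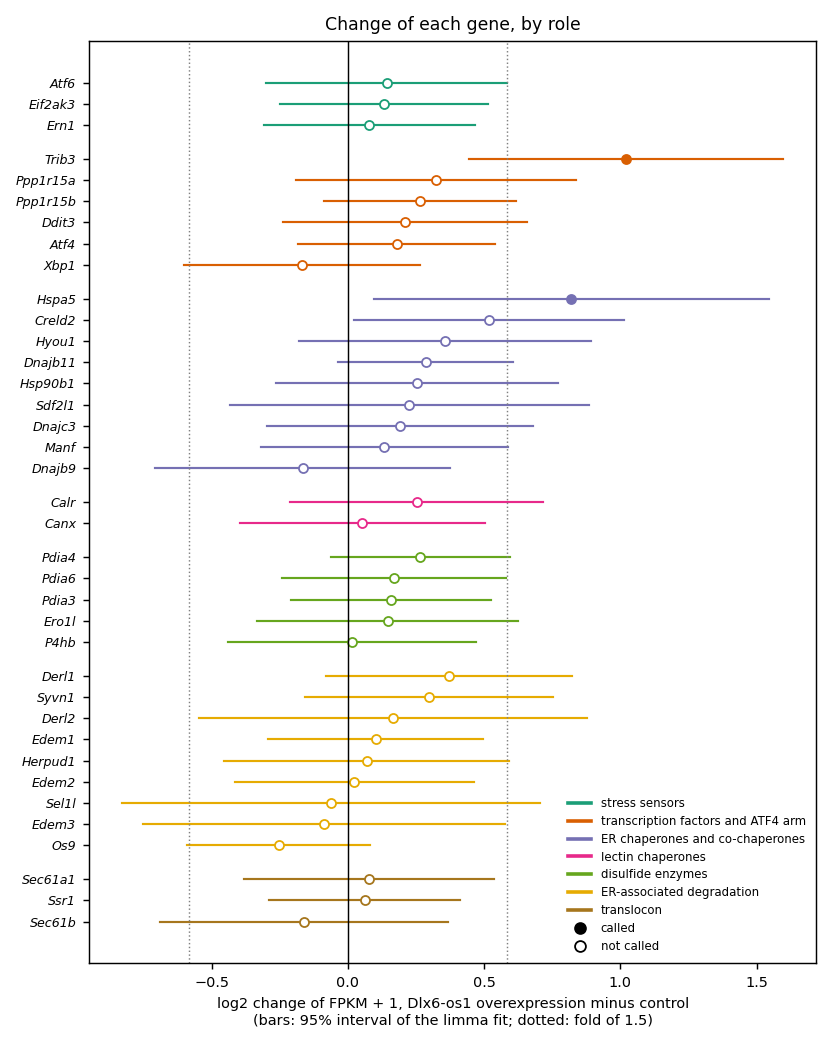
Log2 change of FPKM + 1 (horizontal axis, overexpression minus control) of each of the 37 genes with its 95% interval, coloured by role, with filled points for genes that passed the thresholds of the study and dotted lines at a fold of 1.5. Trib3 (1.02) and Hspa5 (0.82) are the filled points, and 34 of the 37 intervals contain 0.

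Among the ER chaperones, 8 of 9 log2 changes were above 0, with a median of 0.25, and 1 gene passed the thresholds. Hspa5 (ENSMUSG00000026864.13, plus strand of chromosome 2, 34771970 to 34777547 in GRCm38) had 116, 83.9 and 98.6 FPKM in the controls and 298, 117 and 153 FPKM with overexpression. All overexpression samples lay above all controls, but sample 2 exceeded control 1 by about 1 FPKM and sample 1 was far above the rest. The means were 99.5 ± 16.1 (SD, n = 3) and 189 ± 95.8 (SD, n = 3) FPKM. Its log2 change in limma was 0.82 (SE 0.32, 95% interval 0.094 to 1.55, adjusted p = 0.512). The call depended on single samples. It was lost without overexpression sample 1 (log2 change 0.44), without control 2 (0.70) and without control 3 (0.82), and also without moderation of the variances (0.82) or with the most abundant transcript in place of the gene sum (1.25). Over the 21 alternatives the limma adjusted p ran from 0.179 to 0.874.

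Hspa5 has 2 listed transcripts, Hspa5-001 (2613 bases) and Hspa5-002 (3672 bases), and the high value of overexpression sample 1 lay in the shorter. Hspa5-001 had 54.9, 38.4 and 47.4 FPKM in the controls and 284, 71.5 and 68.0 FPKM with overexpression. Hspa5-002 had 61.1, 45.5 and 51.2 FPKM in the controls and 13.8, 45.5 and 85.2 FPKM with overexpression. Hspa5-001 thus made up 45.7% to 48.1% of the gene in the controls, and 95.4%, 61.1% and 44.4% in overexpression samples 1, 2 and 3. In limma on single transcripts neither passed (adjusted p = 0.658 and adjusted p = 0.850). When each transcript was weighted by its length before summing, an alternative chosen after the data had been seen, the gene still passed, with a log2 change of 0.72.

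Creld2 (ENSMUSG00000023272.3, plus strand of chromosome 15, 88819646 to 88826681 in GRCm38), a secreted ER stress-induced disulfide isomerase, had 39.3, 47.0 and 49.6 FPKM in the controls and 50.2, 61.6 and 88.8 FPKM with overexpression. The groups did not overlap, although overexpression sample 1 lay within 1 FPKM of control 3. Its log2 change in limma was 0.52 (SE 0.22, 95% interval 0.023 to 1.01, adjusted p = 0.532), under the fold the study required. It passed the thresholds without control 3 (0.59) and without overexpression sample 1 (0.70), and was at 0.30 without overexpression sample 3, with limma adjusted p from 0.219 to 0.941 over the alternatives.

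The other main chaperone, Hsp90b1 (GRP94), had 266, 147 and 171 FPKM in the controls and 222, 209 and 243 FPKM with overexpression. Control 1 was the highest sample, while the overexpression samples were close together and above controls 2 and 3. Its log2 change was 0.25 (SE 0.23, 95% interval -0.27 to 0.77). Dnajb9, a BiP co-chaperone and IRE1 repressor, was the lowest of the group, with 21.7, 12.7 and 11.7 FPKM in the controls and 13.5, 11.4 and 14.4 FPKM with overexpression. Control 1 stood above the other 5 samples, and the log2 change was -0.17 (SE 0.24). Without control 1 it was 0.096.

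The groups of Dnajb11, another co-chaperone of BiP, did not overlap: 95.3, 96.1 and 92.8 FPKM in the controls against 119.5, 103 and 126 FPKM. Its log2 change was 0.29 (SE 0.14, 95% interval -0.035 to 0.61, limma adjusted p = 0.583). Hyou1, an ER chaperone of the HSP110 family and exchange factor of BiP, had a log2 change of 0.36 (SE 0.23), with 109 FPKM in overexpression sample 3 against 49.3 to 71.3 FPKM in the controls. Sdf2l1, a partner of BiP complexes, was at 0.23 (SE 0.29), Dnajc3 (p58IPK), an inhibitor of PERK, at 0.19 (SE 0.21), and the secreted ER stress factor Manf at 0.13 (SE 0.20).

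Several of these chaperones share the ER stress response element (ERSE), to which ATF6 and XBP1 bind with NF-Y, so its sites are shown as the letters that link them. The motif searched was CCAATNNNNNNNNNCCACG on both strands, from 250 bases before to 50 after the annotated start (RefSeq promoters, GRCm38.p6). It was found in 8 of the 31 members with a promoter in that set (8 of 32 promoters, 25.0%), and in 39 of 32851 promoters in all (0.119%). The element is named for the ER stress response and the members were chosen as its genes, so this contrast reflects the choice. Atf6, Ppp1r15b, Hyou1, Manf, Derl1 and Sec61a1 were not searched. Each site is written 5′ to 3′ on the strand that holds the motif, with its fixed letters in capitals:
Hspa5: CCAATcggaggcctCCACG
Creld2: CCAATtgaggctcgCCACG
Hsp90b1 site 1: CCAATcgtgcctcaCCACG
Hsp90b1 site 2: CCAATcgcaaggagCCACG
Calr: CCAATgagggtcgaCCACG
Canx: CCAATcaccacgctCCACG
Dnajc3: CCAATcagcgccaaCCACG
Pdia6: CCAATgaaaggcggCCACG
Syvn1: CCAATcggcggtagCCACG
The Hspa5 site lies at chr2:34772025-34772043, with its first base at -65 from the annotated start and on the strand of the gene, and the Creld2 site at chr15:88819520-88819538, at -126 and on the opposite strand. The 2 sites of Hsp90b1 lie at chr10:86705533-86705551, on the strand opposite to the gene, and at chr10:86705638-86705656, on its own strand. The 8 members with the element had a median log2 change of 0.25, from 0.052 (Canx) to 0.82 (Hspa5), and the 23 members without it in this window had a median of 0.10, from -0.25 (Os9) to 1.02 (Trib3). The ranges overlap, no test was run, and a match is a description of letters only. The UPR element TGACGTGG was found in 0 member promoters, beside 0.676% of all, and the C/EBP-ATF response element TGATGNAAT in 0, beside 0.965% of all. Only these exact letters in this window were searched, so 0 matches do not show that the members lack either element.

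The lectin chaperones hold glycoproteins in the folding cycle. Calr (calreticulin), the most abundant member in every sample, had 428, 518 and 599.8 FPKM in the controls and 557, 563 and 717 FPKM with overexpression. Control 3 lay above overexpression samples 1 and 2, and the log2 change was 0.25 (SE 0.20, 95% interval -0.21 to 0.72). Canx (calnexin), its membrane-bound relative, had 204, 126 and 142 FPKM in the controls and 167, 150.3 and 162 FPKM with overexpression. Control 1 was the highest sample again, and the log2 change was 0.052 (SE 0.20).

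The disulfide enzymes form and rearrange disulfide bonds. All 5 log2 changes were above 0, from 0.016 to 0.27, and none passed the thresholds. The sign of P4hb turned in 5 of the 21 alternative settings, among them median-centring (-0.022). Its log2 changes over them ran from -0.14 to 0.13. Pdia4 (ERp72) had 102, 105 and 113 FPKM in the controls and 126, 117 and 143 FPKM with overexpression. Its groups did not overlap, with a log2 change of 0.27 (SE 0.14, 95% interval -0.062 to 0.59). P4hb, the protein disulfide isomerase PDI, had 240.0, 311 and 348 FPKM in the controls and 272, 278 and 355 FPKM with overexpression. It showed the smallest change of the group, 0.016 (SE 0.20, 95% interval -0.44 to 0.47). Pdia6 was at 0.17, Pdia3 (ERp57), which works with the lectin chaperones, at 0.16, and Ero1l, the oxidase that recharges PDI, at 0.15.

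ER-associated degradation carries misfolded proteins out of the ER to the proteasome. Of its 9 genes, 6 had log2 changes above 0 and 3 below (Edem2 was also below under median-centring), with a median of 0.069, and none passed the thresholds. Derl1, a channel component, was the highest, with 32.6, 41.8 and 44.1 FPKM in the controls and 47.6, 42.6 and 65.2 FPKM with overexpression. Overexpression sample 2 lay below control 3, and the log2 change was 0.37 (SE 0.20, 95% interval -0.082 to 0.82). Os9, a lectin that delivers substrates to the ubiquitin ligase, was the only member with every overexpression sample below every control: 29.7, 30.6 and 35.7 FPKM against 24.7, 25.9 and 29.3 FPKM. Its log2 change was -0.25 (SE 0.15, 95% interval -0.59 to 0.081, limma adjusted p = 0.638).

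The ubiquitin ligase Syvn1 (HRD1) had a log2 change of 0.30 (SE 0.20), and Sel1l, its adaptor, one of -0.063 (SE 0.34). Sel1l varied widely within each group, from 13.7 to 28.0 FPKM in the controls and from 15.2 to 32.1 FPKM with overexpression. Derl2 was at 0.17, Herpud1, an early UPR target that organises the complex, at 0.069, and the mannosidase-like proteins Edem1, Edem2 and Edem3 at 0.10, 0.024 and -0.088. The sign of Edem2 turned under quantile normalization (-0.015) and median-centring (-0.014).

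The translocon brings new proteins into the ER. Sec61a1, its channel subunit, had 78.6, 102 and 116 FPKM in the controls and 94.5, 90.4 and 128 FPKM with overexpression, and a log2 change of 0.077 (SE 0.20). Sec61b, a small subunit of the channel, had 96.3, 117 and 145 FPKM in the controls and 98.6, 83.6 and 142 FPKM with overexpression, and a log2 change of -0.16 (SE 0.23). The groups of both genes overlapped, with sample 3 the highest of each group. Ssr1, a subunit of the translocon-associated complex, was at 0.062 (SE 0.15).

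Across all 37 genes, 31 log2 changes were above 0 (83.8%, beside 54.2% of all genes) and 6 below. The 6 were Xbp1, Dnajb9, Sel1l, Edem3, Os9 and Sec61b, which Edem2 and P4hb joined under median-centring. With a sample left out, up to 9 signs turned (9 without control 1 and 8 without overexpression sample 3). The median change was 0.16 on the log2 scale, beside 0.029 for all genes. The members were chosen with earlier results of these data known, so these comparisons describe the list and do not test it. The 144 other pathway genes measured had a median of 0.022, with 50.7% above 0. By role the medians were 0.25 for the chaperones, 0.24 for the transcription factors and the ATF4 arm, 0.16 for the disulfide enzymes, 0.15 for the lectin chaperones, 0.13 for the sensors, 0.069 for degradation and 0.062 for the translocon. For 5 genes (Trib3, Hspa5, Creld2, Dnajb11 and Pdia4) every overexpression sample was above every control, beside 10.1% of all genes, and for Os9 every one was below, beside 6.24%. The 95% intervals of 11 genes lay wholly within a fold of 1.5 in either direction.

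The shift was uneven between samples. Against the control mean, the median member was 0.12 higher on the log2 scale in overexpression sample 1, 0.026 in sample 2 and 0.37 in sample 3, whereas the median of all genes was 0.031, 0.026 and 0.037 in these samples. The median member stood at -0.038, -0.025 and 0.058 in controls 1, 2 and 3. In overexpression sample 3, 32 of 37 genes were above the control mean, against 24 in sample 1 and 21 in sample 2. Sample 3 was also the highest of the 6 samples for 21 genes, and it had the lowest summed levels of the proximal tubule markers (36.9 FPKM) and of the mesangium and stroma markers (7.76 FPKM), whose part in this was not tested. The members took 0.828% to 0.894% of the listed FPKM in the controls and 0.985%, 0.916% and 1.07% with overexpression. Without overexpression sample 3 the median log2 change of the members was 0.10.

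**Figure D3:**
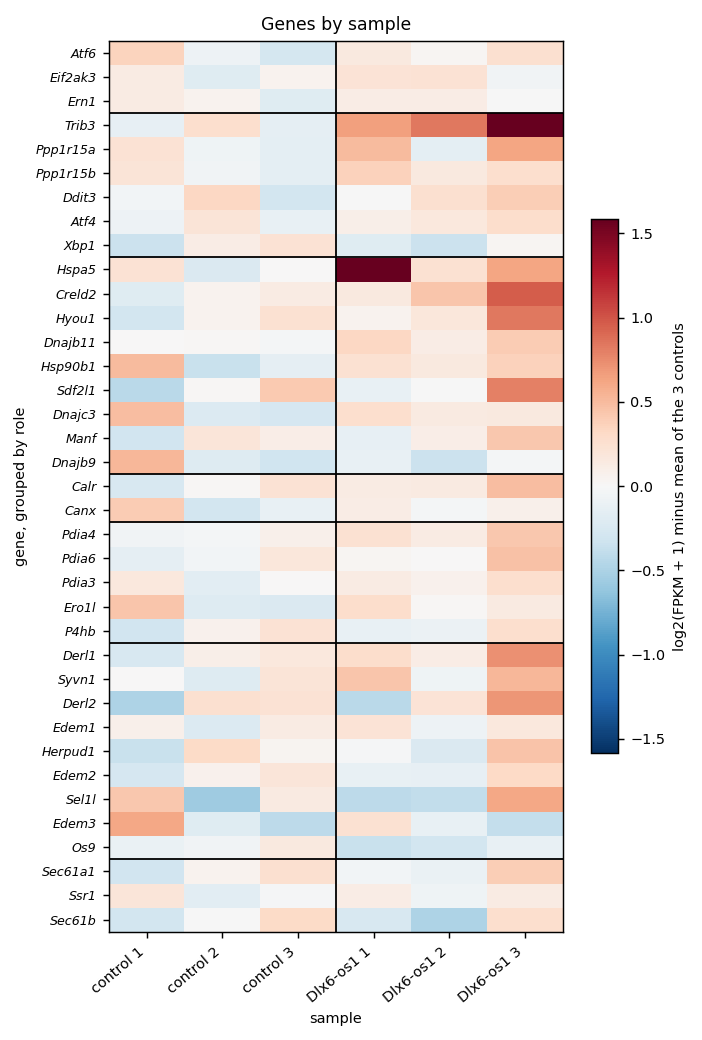
Log2(FPKM + 1) of the 37 genes (rows, grouped by role) in each sample (columns), minus the mean of the 3 controls, with red above and blue below it. Overexpression sample 3 has the most genes above the control mean (32 of 37), Hspa5 is strongest in sample 1, and control 1 departs from the other controls in both directions.

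Transcript values showed further splits within genes that the gene sums hide. Of the 62 listed transcripts of the members, 1 passed the thresholds (Trib3-001), beside 3.07% of all 21849 transcripts called higher and 2.51% called lower. At an unadjusted p under 0.05 in limma there were 3, Trib3-001, Os9-202 (log2 change -0.49) and the minor P4hb-002 (0.58), beside 7.58% of all transcripts. Some splits followed the replicate number rather than the group. Syvn1-001 had 15.4, 0.54 and 17.3 FPKM in the controls and 19.6, 0.49 and 23.0 FPKM with overexpression. Syvn1-002 was highest in the samples numbered 2 of both groups, at 12.7 and 18.3 FPKM against 3.20 to 5.25 FPKM in the other 4. Dnajb11-201 was instead high in the samples numbered 1, at 23.4 and 29.5 FPKM against 0.76 to 1.60 FPKM elsewhere. Derl2-007 was low in the same pair, at 0.97 and 1.40 FPKM against 15.5 to 24.6 FPKM.

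**Figure D4:**
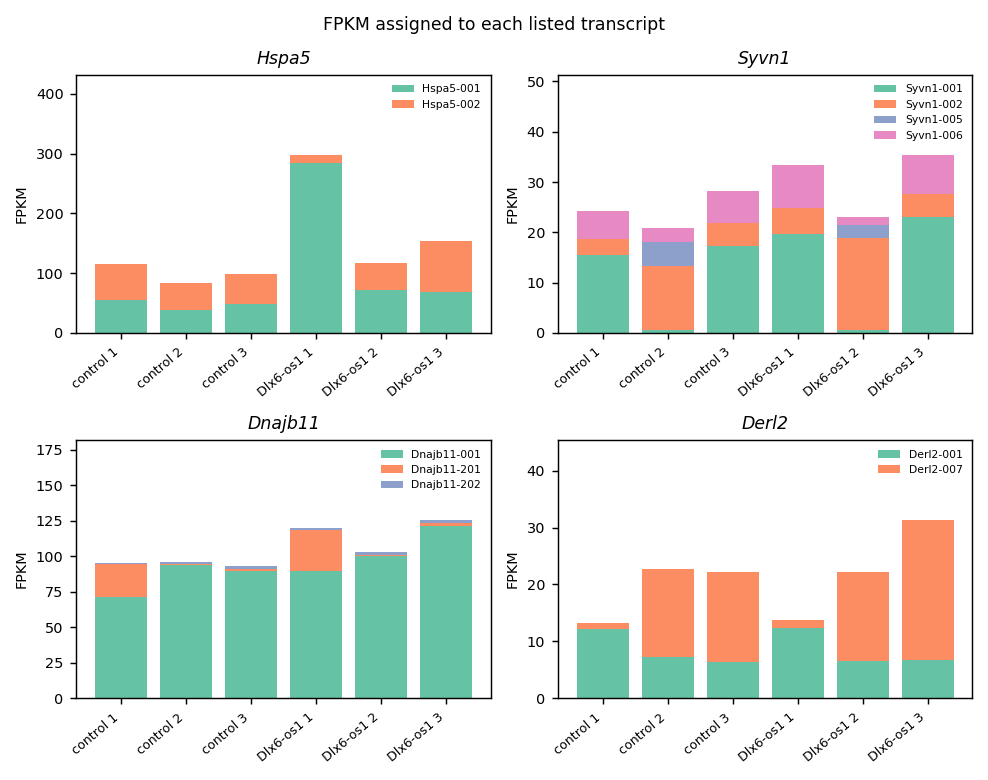
FPKM (stacked bars, from 0) assigned to each listed transcript of Hspa5, Syvn1, Dnajb11 and Derl2 in each of the 6 samples. Hspa5-001 makes up 95.4% of Hspa5 in overexpression sample 1, and the splits of Syvn1, Dnajb11 and Derl2 recur in samples of the same number in both groups.

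The wider pathway was read from 149 other genes, of which 144 were measured. Of these, 2 rose (Tmx2 and Ube2g2), 2 fell (Stc2 and Tusc3) and 140 did not pass the thresholds, beside 2.49% of all genes higher and 2.23% lower. Their median log2 change was 0.022, and 73 of 144 (50.7%) were above 0, beside 54.2% of all genes. At an unadjusted p under 0.05 alone, 9 of the 144 were higher and 8 lower, beside 5.29% and 3.87% of all genes. Of these 9 higher genes, 4 were among the 15 further targets of ATF4 and CHOP, a list with a median of 0.22 and 1 of the 8 lower genes (Stc2). These 4 had log2 changes under the fold of the study: Chac1 (0.54), Atf3 (0.50), Bcl2l11 (0.50) and Sesn2 (0.49), with limma adjusted p from 0.481 to 0.544. These 4, named after their values were seen, encode a glutathione-degrading enzyme, a stress transcription factor, a pro-apoptotic BH3 protein and a stress-induced inhibitor of mTORC1 signalling. The groups overlapped for Chac1 and Bcl2l11 and did not for Atf3 and Sesn2. Of the 15 targets, 10 had log2 changes above 0 (66.7%, beside 54.2% of all genes) and 5 below. The 5 were Stc2, Nupr1 (-0.23), Gdf15 (-0.23), Ddit4 (-0.061) and Nfe2l2 (-0.018).

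Stc2, a secreted glycoprotein that ATF4 is known to induce, went the other way, from 134, 155 and 96.4 FPKM in the controls to 86.1, 82.5 and 36.8 FPKM with overexpression. Every overexpression sample was below every control, with a log2 change of -0.96 (SE 0.33, limma adjusted p = 0.481). Tusc3, a subunit of the oligosaccharyltransferase that glycosylates entering proteins, fell by 0.71 on the log2 scale (limma adjusted p = 0.471). Tmx2, a membrane protein of the disulfide isomerase family, rose by 0.64 (limma adjusted p = 0.517), and Ube2g2, a ubiquitin-conjugating enzyme of ER-associated degradation, by 0.66 (limma adjusted p = 0.452). The other 5 of the 9 were 1 folding enzyme, 3 degradation genes and 1 gene of translocation and glycosylation. The other 7 lower genes comprised 1 relative or protease of ATF6, 2 degradation genes and 3 of translocation and glycosylation. The last of the 7 was Bloc1s1, from the list of IRE1 signalling and IRE1-dependent RNA decay. It had 63.2, 89.7 and 92.7 FPKM in the controls and 52.8, 58.0 and 61.1 FPKM with overexpression. Its log2 change was -0.49 (limma adjusted p = 0.495), and the other 9 genes of that list were above 0. The list medians were -0.11 for the relatives and proteases of ATF6, 0.14 for eIF2 kinases and eIF2B, and 0.069 for IRE1 signalling and decay. They were -0.051 for folding enzymes, -0.037 for degradation and -0.037 for translocation and glycosylation.

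**Figure D5:**
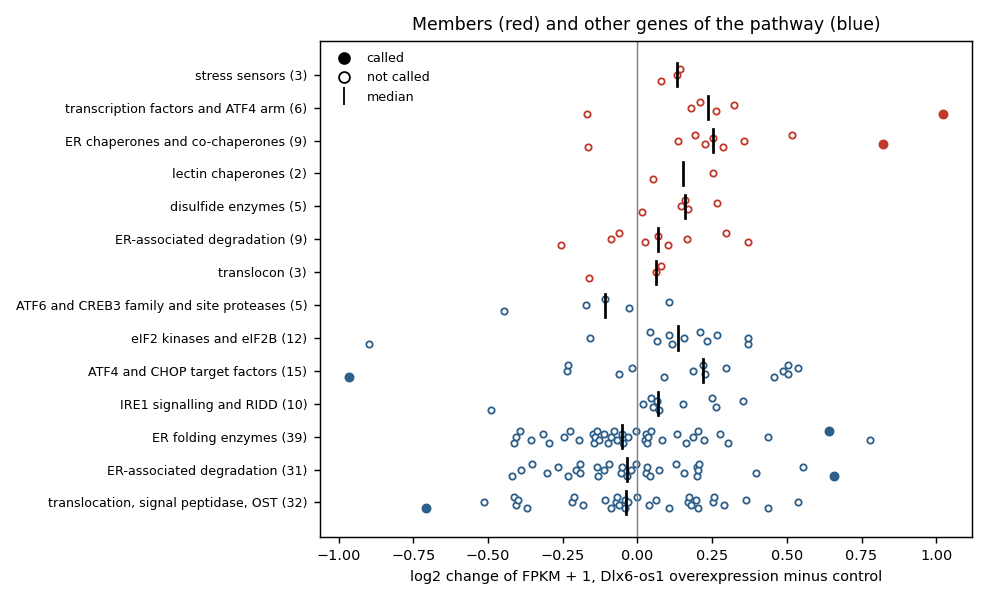
Log2 change of FPKM + 1 (horizontal axis) of each gene, 1 line per list with its number of genes, members in red and other pathway genes in blue, filled where the thresholds of the study were passed, with a black bar at the median. The medians of the member groups run from 0.062 to 0.25 and those of the other lists from -0.11 to 0.22.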

How the data were processed

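RNA-seq was done on 6 samples, grouped by their labels. The authors deposited FPKM of 21849 protein-coding transcripts. FastQC, HISAT2, StringTie and mm10 appear in their processing notes, without versions. The use of strand when reads were assigned is not stated in these sources, which leaves overlapping genes uncertain. Low values did not lie on steps worth 1 read (26.1% to 30.8% of 246 to 280 values per sample within 0.1 of a whole step, 20% if even), so the depth is unknown and precision rests on the spread between samples.

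FPKM were summed per symbol, taken to log2 with a pseudocount of 1 and fitted in limma 3.58.1 under R 4.3.3 (trended eBayes, Benjamini-Hochberg over 11308 genes), which was tested on simulated data. The members and lists were chosen with earlier results of these data known. Values in every sample are given for members with p under 0.05, the regulators, the main chaperones and the extremes of each role, with others added where samples stood apart. Called genes are named in the other pathway lists. The alternatives changed the pseudocount (0.1, 0.5) and the filter on the mean (none, or 1 in place of 0.5), or used TPM, quantile normalization, median-centring, a replicate block, no variance trend, no moderation, folds of means, the most abundant transcript and each sample left out. Every deposited transcript already had a mean of at least 0.5 FPKM in 1 group or both, so removing the filter could change nothing. Folds of means changed the fold only and kept the p-values of the log2 fit. Length-weighted sums and removal of GC and length trends (polynomials of degree 3) were added after the data had been seen. Some podocyte markers are not reported here.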

Additional observations from a re-analysis of the deposited data

How the results depend on the processing

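Trib3 passed the thresholds of the study in all 21 alternatives, and 0 members were called lower or reached an adjusted p under 0.05 (limma) in any. Among them, removing the filter could change nothing, and folds of means kept the p-values of the log2 fit. The number called higher was 2, or 1 without moderation and with the most abundant transcript, and 1 to 2 when a sample was left out (1 without control 2). The median member change stayed between 0.10 and 0.20. Of all genes, 145 were higher and 103 lower without moderation, and 205 to 407 and 182 to 380 when a sample was left out (380 lower without overexpression sample 1). The 4 genes of the whole table at an adjusted p under 0.05 (limma) became 10 with the replicate block, 7 with the most abundant transcript or with GC and length trends removed, 2 with length-weighted sums, 1 with the block and the trends removed together, 0 without moderation, and 0 to 8 when a sample was left out. Median-centring moved the median of all genes from 0.029 to -0.0096. Signs turned only in genes that passed in no setting. Edem2 was at -0.015 under quantile normalization and -0.014 under median-centring, and P4hb at -0.022 under median-centring and -0.015 with GC and length trends removed, where Edem2 was at -0.0037, each also with the block added. With a sample left out, log2 changes ran from -0.12 to 0.12 for Edem2, -0.14 to 0.13 for P4hb, -0.32 to 0.096 for Dnajb9, -0.018 to 0.27 for Manf, -0.12 to 0.22 for Herpud1, -0.40 to 0.15 for Sel1l, -0.30 to 0.22 for Edem3, -0.10 to 0.46 for Derl2, -0.077 to 0.20 for Sec61a1, -0.091 to 0.25 for Canx, -0.0053 to 0.19 for Edem1, -0.022 to 0.16 for Ssr1, -0.014 to 0.14 for Ern1, -0.37 to 0.0037 for Sec61b and -0.060 to 0.43 for Sdf2l1. The cause was not tested. The replicate numbers share no stated origin, so samples were not taken as pairs. Same-numbered samples deviated together with r = 0.29, 0.024 and 0.29 across genes, and differently numbered ones with r from -0.31 to 0.11. With GC and length trends removed, r was 0.10, 0.029 and 0.18 for the same numbers and -0.17 to 0.11 for different ones. Not every sample correlated best with its own number, and a shared origin of the numbers was not tested. With the replicate block, 2 members were called higher, Trib3 and Hspa5, and no call of a member changed. The unadjusted limma p with the block was 0.0031 for Hspa5 and 0.0095 for Creld2, against 0.031 and 0.042 without it. Their adjusted limma p with the block was 0.179 and 0.228. For Hyou1 and Derl1 the unadjusted limma p was 0.041 and 0.046 with the block, against 0.165 and 0.096 without it. The adjusted limma p of Hyou1 and Derl1 with the block was 0.344 and 0.358. The unknown depth limits what can be said of the low genes.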
